A study of Homo sapiens with 16 samples.

Results

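A set of 10 messenger RNAs that carry upstream reading frames and are known for being translated during stress was followed across sucrose gradients of 293S cells, an established human line of the HEK293 family. They are ATF4, ATF5, DDIT3, PPP1R15A, PPP1R15B, IFRD1, IBTK, SLC35A4, CEBPG and PCNXL4, chosen by name, and all 10 of 10 were among the 13148 genes of the deposited table. The control cells received no treatment and the other cells 1 mM sodium arsenite, an oxidative poison, for 30 minutes; both sets were 293S cells grown in monolayer in medium with serum and antibiotics. Total RNA from 8 fractions of each gradient was sequenced, giving 16 libraries in 16 groups of 1, so differences could not be set against replicate error or tested. A value gives, for 1 gene and 1 gradient, the part of the gene's total found in that fraction. Shares carry neither the level of an mRNA nor the depth behind it, so cell type markers could not be checked and no counting interval can be given. A sucrose gradient separates mRNAs by the mass of what they carry, ribosomes above all. Whether fraction 1 was the top or the bottom of the gradient is not in the labels.

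Translation normally begins when a ribosomal subunit carrying eIF2, GTP and the initiator tRNA scans from the cap to an AUG. Arsenite activates the kinase EIF2AK1 (HRI), which phosphorylates the alpha subunit of eIF2 and slows the reloading of initiator tRNA, so that most mRNAs lose ribosomes. An upstream reading frame usually keeps ribosomes from the main coding sequence. In ATF4 and ATF5, ribosomes that have translated a short first frame resume scanning; when initiator tRNA is scarce they pass the start of a second, overlapping frame before they are ready again and reach the main start instead. In DDIT3 and PPP1R15A the inhibitory upstream start is bypassed. The proteins form a circuit: ATF4, ATF5, CEBPG and DDIT3 are bZIP transcription factors of the integrated stress response, and PPP1R15A (GADD34) and PPP1R15B (CReP) are the inducible and the constitutive subunits that direct protein phosphatase 1 to eIF2 alpha.

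The start sites show the upstream frames that define the set. Sequences are from GENCODE release 29 transcripts, 1 per gene, printed 5′ to 3′ as DNA, with up to 9 bases before each AUG, the AUG in capitals and 4 bases after it. ATF4 (chromosome 22) has 3 AUGs before its main start: the first is followed at once by a stop codon, the second opens a frame of 3 codons and the third a frame of 59 codons that starts 97 nt before the main start and ends 83 nt inside the main coding sequence. ATF5 (chromosome 19) has a short and an overlapping frame too, of 3 and 59 codons, the second ending 56 nt inside the coding sequence. DDIT3 (chromosome 12) opens with a frame of 34 codons that has a second AUG within it, in the same frame. The third AUG of DDIT3, 32 nt before the main start, opens a frame of 73 codons that ends 190 nt inside the coding sequence. In PPP1R15A (chromosome 19) both upstream frames close before the main start, the second, of 26 codons, 26 nt ahead of it. SLC35A4 (chromosome 5) has a long first frame of 103 codons, and CEBPG (chromosome 19) is shown as the mRNA that kept the smallest part of its share.
ATF4 short upstream start: acggccaccATGgcgt
ATF4 overlapping upstream start: gcttaagccATGgcgc
ATF4 main start: caccgcaacATGaccg
ATF5 short upstream start: gccccggccATGgctc
ATF5 overlapping upstream start: gctgcagccATGgagt
ATF5 main start: gctacagccATGtcac
DDIT3 upstream start: gagcgtatcATGttaa
DDIT3 main start: actgcagagATGgcag
PPP1R15A second upstream start: gagggtgagATGaacg
PPP1R15A main start: cccagacacATGgccc
SLC35A4 first upstream start: gcggggaagATGgcgg
SLC35A4 main start: tgtgtgggtATGagtg
CEBPG second upstream start: ttggccgggATGgcgg
CEBPG main start: agtgcccaaATGagca

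Every one of the 10 transcripts had at least 1 AUG ahead of its main start, against 49.5% of the 13054 genes with a matched transcript. The number ran from 1 in IFRD1 to 11 in SLC35A4. ATF4 had 3 with the transcript chosen here and 7 with ties between transcripts going to the longer one. A frame that overlaps the main start out of frame was found in 3 of the 10, ATF4, ATF5 and DDIT3, against 16.1% of all matched genes. The annotated 5′ untranslated region had a median of 378.5 nt over the 10 and 177 nt over all matched genes, from 180 nt in DDIT3 to 728 nt in SLC35A4. Upstream frames were the reason these mRNAs were chosen, so this describes the set.

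With arsenite the 10 mRNAs kept more of their total in fractions 4 to 8 than the median gene did, but to very different degrees. In the control the median of their share in these fractions was 70.6%, against 73.4% over all genes. With arsenite the medians were 49.3% and 32.5%. Some of the 10 started low: the control shares of ATF4, DDIT3, CEBPG and PCNXL4 stood at percentiles 9.12, 9.81, 19.2 and 22.7 of all genes. The others lay between percentile 35.8 (PPP1R15B) and 70.9 (IFRD1). PPP1R15A held the largest arsenite share, 65.5%, followed by ATF4 (62%), PPP1R15B (56%), IFRD1 (54.7%) and ATF5 (53%). These 5 of 10 had at least 50% of their total there, as did 18.7% of all genes. IBTK (45.5%), SLC35A4 (43.7%), PCNXL4 (41.5%) and DDIT3 (38.7%) lay between the set's leaders and the median gene, and CEBPG (23.1%) lay below the median gene.

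**Figure D1:**
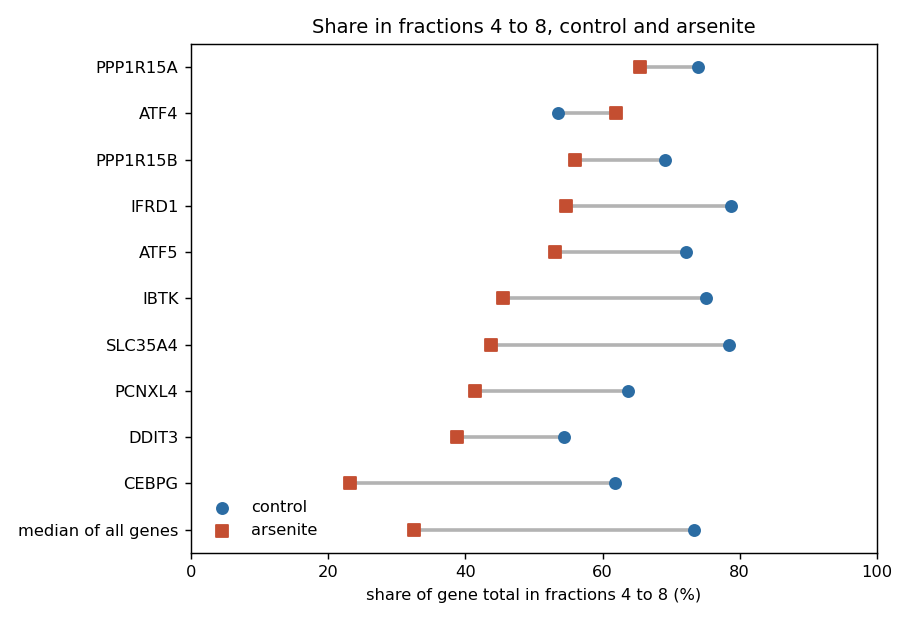
Share of each gene's total (x axis, percent) that lay in fractions 4 to 8 in the control (circles) and with arsenite (squares), for the 10 mRNAs and the median over all genes, 1 library per fraction. ATF4 was the only one of the 10 whose arsenite share (62%) was above its control share (53.5%); CEBPG had the lowest arsenite share, 23.1%.

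Retention, the arsenite share in fractions 4 to 8 divided by the control share, had a median of 0.70 over the 10 and 0.46 over all genes. An mRNA was said to keep its share when retention was at least 0.75. ATF4 (1.16), PPP1R15A (0.89) and PPP1R15B (0.81) did so, 3 of 10, where 15.3% of all genes did. ATF5, at 0.74, DDIT3, at 0.71, and IFRD1, at 0.69, lay just under that limit. The count at this limit moved with the fractions used: it was 5 without fraction 1 in both gradients and 6 without fraction 3, where 18.4% and 26.8% of all genes kept their share. Without fraction 4 or without fraction 5 it was 2, beside 9.61% and 7.74% of all genes, because PPP1R15B was then at 0.65 and 0.72. At a limit of 0.5 the count was 9 of 10, all but CEBPG, beside 44.8% of all genes, and at 1 it was ATF4 alone, beside 3.25%.

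Position was the share-weighted mean of the fraction numbers, and relative shift was the arsenite position minus the control position, less the same difference for the median gene (−1.46 fractions). All 10 relative shifts were positive, from 0.26 for IBTK to 1.57 for ATF4, with a median of 0.74. An mRNA was called moved when the relative shift was 0.5 fractions or more in either direction and no sign change came from dropping any 1 fraction number. By this rule 7 of 10 moved higher, beside 23.6% of all genes, and 0 moved lower, beside 24%. The 3 not called were CEBPG (0.45), SLC35A4 (0.40) and IBTK (0.26). Because genes that start at low fraction numbers have less room to fall, each mRNA was also ranked among genes whose control position was within 0.25 fractions of its own. PPP1R15A then stood at percentile 96.8, ATF4 at 96.3, IFRD1 at 89.5, PPP1R15B at 87.9, ATF5 at 85.4 and PCNXL4 at 81.3. IBTK (67.8), SLC35A4 (67.3) and DDIT3 (66.8) were nearer the middle, and CEBPG stood at 52.3.

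Fraction by fraction, the place of the set among other genes changed most in fractions 2 and 6. In fraction 6 of the control, 1 of the 10, PPP1R15B, had a share above the median gene; with arsenite 8 of 10 did, where 50% of genes do by definition. In fraction 7 the counts were 2 and 6, and in fraction 8 they were 4 and 7. The shares behind these counts were small with arsenite: in fraction 6 those of the 10 ran from 2.33% to 9.77%, with a median of 4.98% against 3.07% over all genes. In fractions 4 and 5, which held most of what was kept, the 10 stood above the median gene in both gradients, 9 and 8 of 10 in the control and 9 and 9 with arsenite. At the other end, in fraction 2, 8 of 10 lay above the median gene in the control and 2 with arsenite.

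An arsenite share at least as large as the control share was found in fractions 1, 2 and 3 for 10, 9 and 8 of the 10, beside 94.4%, 95.2% and 80.3% of all genes, so the set gained there as most genes did. It was found in fraction 4 for 3 of the 10, ATF4, ATF5 and PPP1R15B, beside 41.7% of all genes. In fraction 5 it was found for 3, ATF4, PPP1R15A and PPP1R15B, beside 28.3%. None of the 10 did so in fractions 6 and 7, beside 5.75% and 4.57%, and 2, ATF4 and PPP1R15A, did in fraction 8, beside 7.28%. In fractions 4 and 5 the count of mRNAs whose share did not fall was thus not above the background by much, if at all. The arsenite shares themselves were larger, with medians of 22.4% against 15.2% over all genes in fraction 4 and 18.8% against 10.9% in fraction 5. As log2 ratios with 1 percentage point added to both shares, the median change of the 10 in fraction 6 was −0.94 and that of all genes −1.85, and in fraction 2 the values were 0.59 and 1.5. In fraction 4 they were −0.25 and −0.18, and in fraction 5 −0.34 and −0.72.

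**Figure D2:**
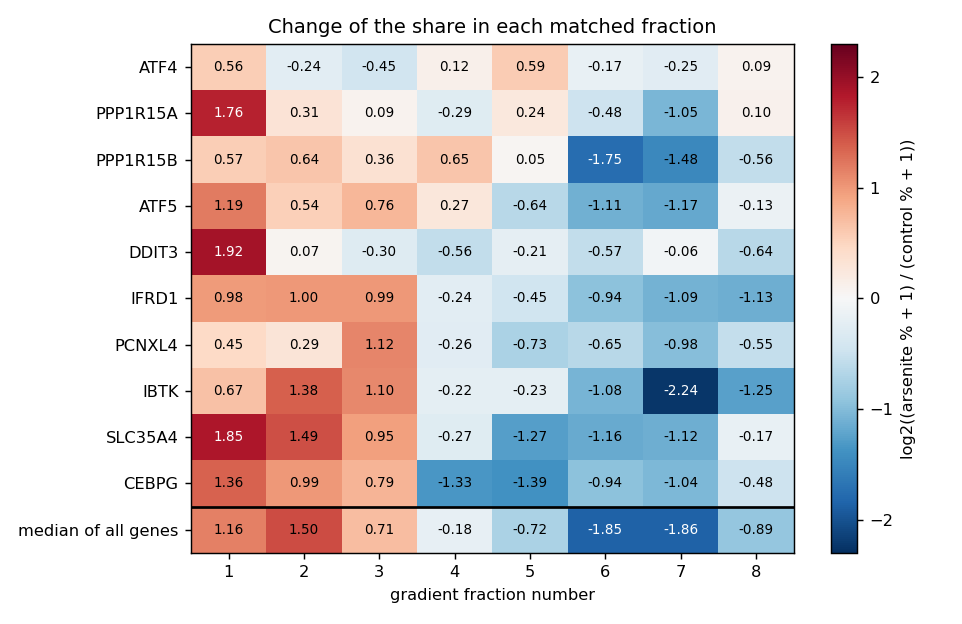
Change of the share in each matched pair of libraries (columns: fraction number 1 to 8), as log2 of arsenite over control after adding 1 percentage point, for the 10 mRNAs ordered by retention and for the median of all genes (bottom row). ATF4 ranged from −0.45 in fraction 3 to 0.59 in fraction 5, while the median gene ranged from −1.86 in fraction 7 to 1.5 in fraction 2.

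ATF4, the transcription factor at the centre of the integrated stress response, kept its peak in fraction 4 with arsenite and gained in fraction 5. In the control, the shares of ATF4 in fractions 1 to 8 were 2.8%, 15.8%, 27.8%, 32%, 12.3%, 5.79%, 2.46% and 0.998%. With arsenite they were 4.61%, 13.3%, 20.1%, 34.9%, 19%, 5.03%, 1.9% and 1.12%. Fraction 4 held the largest share in both gradients, and the shares of fractions 2 and 3 were lower and that of fraction 5 higher with arsenite. Its position was 3.67 without arsenite and 3.79 with it, so that it rose by 0.11 fractions. A rise of any size was found in 1.73% of all genes. Control and arsenite ranks were far apart: among the 2898 genes whose coding length was within 1.25-fold of its own (1053 nt), its position stood at percentile 7.64 in the control and 96.5 with arsenite. Its relative shift of 1.57 was at percentile 98.7 of all genes and ran from 1.35 to 1.85 when single fractions were left out.

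ATF5, the closest relative of ATF4 in layout and a factor of mitochondrial and proteotoxic stress, kept less. From fraction 1 to fraction 8, ATF5 had 1.83%, 16.1%, 9.92%, 18.7%, 37.2%, 10.5%, 4.54% and 1.22% of its total in the control. After arsenite the values were 5.46%, 24%, 17.5%, 22.7%, 23.5%, 4.32%, 1.46% and 1.03%. Its control peak in fraction 5 fell by 13.6 percentage points, and the arsenite profile had a peak in fraction 2 beside a broad one in fractions 4 and 5. The summed share in fractions 4 to 8 was 72.1% without arsenite and 53% with it, and the relative shift was 0.75. ATF4 kept 1.16 and ATF5 0.74 of the control share, a difference for which no replicate spread exists.

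DDIT3 encodes CHOP, a pro-apoptotic partner of the C/EBP factors. Untreated cells held 6.34%, 11.5%, 27.8%, 32%, 14.6%, 4.74%, 1.57% and 1.45% of DDIT3 in fractions 1 to 8. Treated cells held 26.7%, 12.1%, 22.4%, 21.4%, 12.5%, 2.87%, 1.46% and 0.576%. The arsenite profile had its highest value in fraction 1, where the share was 20.4 percentage points above the control, while fractions 3 to 5 together still held most of the rest. Its share in fractions 4 to 8 was 54.3% without arsenite and 38.7% with it. The relative shift was 0.79, and 1.18 with fraction 1 left out. DDIT3 has a short coding sequence of 507 nt and started low; among genes of like coding length its position stood at percentile 13.1 in the control and 80.9 with arsenite.

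CEBPG is a short C/EBP protein that pairs with ATF4 on amino acid and redox genes. By relative shift it lay near the middle of the genes that start where it does, and by retention at percentile 39 of them. The control shares of CEBPG ran 6.3%, 8.68%, 23.2%, 29.6%, 22.1%, 5.36%, 3.32% and 1.44% over the 8 fractions. Its arsenite shares were 17.8%, 18.2%, 40.9%, 11.1%, 7.8%, 2.33%, 1.1% and 0.758%. Fraction 3 gained 17.7 percentage points, and fractions 4 and 5, which had held the larger part in the control, fell by 18.4 and 14.3 points. Its share in fractions 4 to 8 was 61.8% without arsenite and 23.1% with it, and retention was 0.37, below the median gene at 0.46. Its relative shift was 0.45, with 40.9% of its arsenite total just outside the summed fractions, in fraction 3. Arsenite fraction 3 was the library of its gradient with the most genes listed at 0, 728, although none of the 10 mRNAs was at 0 in any library.

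PPP1R15A, whose product brings protein phosphatase 1 to phosphorylated eIF2 alpha and so reverses the block, kept the largest arsenite share of the set in fractions 4 to 8. In the control, the shares of PPP1R15A in fractions 1 to 8 were 0.917%, 11.1%, 14.1%, 27.1%, 25%, 14%, 6.59% and 1.19%. With arsenite they were 5.51%, 14%, 15%, 22%, 29.7%, 9.77%, 2.67% and 1.34%. Fraction 5 was higher with arsenite, and fractions 4, 6 and 7 were lower. Its arsenite share in fraction 6, 9.77%, was the highest of the 10 and stood at percentile 97.5 of all genes. Its position was 4.39 without arsenite and 4.03 with it, the highest arsenite position of the set, and the relative shift was 1.1, with a range of 0.96 to 1.26 when single fractions were left out.

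PPP1R15B, the constitutive counterpart, kept its share while its peak changed from fraction 6 to fraction 4. From fraction 1 to fraction 8, PPP1R15B had 4.81%, 7.55%, 18.6%, 15.6%, 20.6%, 21.4%, 8.94% and 2.54% of its total in the control. After arsenite the values were 7.63%, 12.4%, 24%, 25%, 21.4%, 5.64%, 2.56% and 1.4%. The control peak in fraction 6 fell by 15.8 percentage points, and fraction 4 rose by 9.37, so that the sum over fractions 4 to 8 was 69.1% without arsenite and 56% with it. Counted over fractions 5 to 8 it kept less, with 53.5% in the control and 31% with arsenite, whereas PPP1R15A had 46.8% and 43.5%. The relative shift of PPP1R15B was 0.68.

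**Figure D3:**
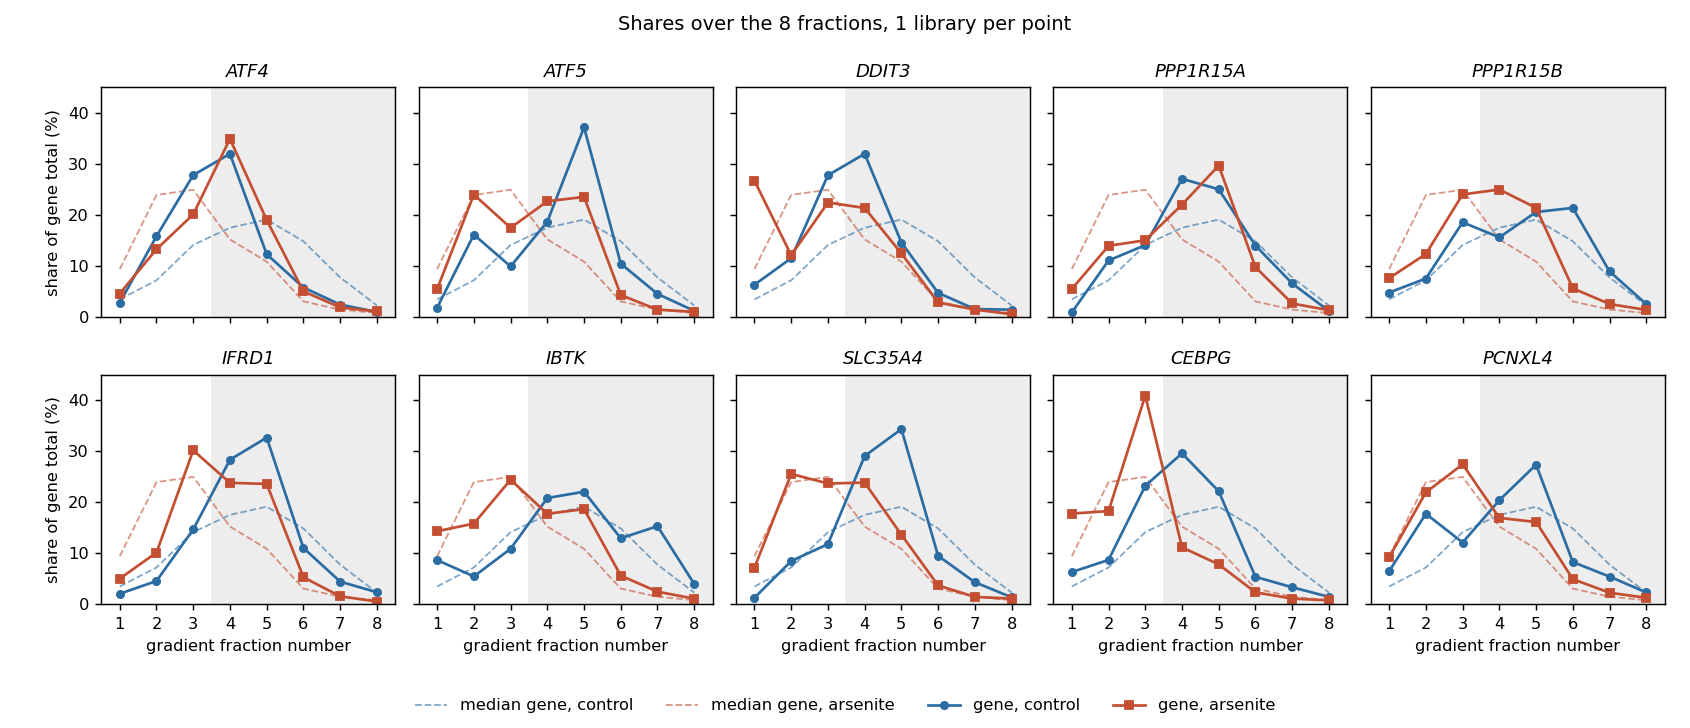
Share of each gene's total (y axis, percent) in gradient fractions 1 to 8 (x axis) for the 10 mRNAs in the control (blue circles) and with arsenite (red squares); dashed lines are the medians over all 13148 genes in each library, the shaded area marks fractions 4 to 8, and each point is 1 library. The median gene peaks in fraction 5 in the control (19.1%) and in fraction 3 with arsenite (24.9%), whereas ATF4 peaks in fraction 4 in both.

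IFRD1, a co-regulator of transcription whose upstream frame is also known to link its mRNA to decay, kept a broad shoulder. Untreated cells held 2.05%, 4.55%, 14.6%, 28.3%, 32.6%, 11%, 4.43% and 2.35% of IFRD1 in fractions 1 to 8. Treated cells held 5.02%, 10.1%, 30.1%, 23.8%, 23.6%, 5.29%, 1.55% and 0.53%. The largest gain was in fraction 3, by 15.5 percentage points, and fractions 4 and 5 held nearly equal shares with arsenite. IFRD1 had little in fraction 2 with arsenite, at percentile 10.7 of all genes, the lowest of the 10. Its relative shift of 0.74 was 0.47 with median-of-ratios size factors, which give the typical gene the same value in all libraries, and was then under the limit of 0.5.

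IBTK, an inhibitor of Bruton's tyrosine kinase with several upstream frames, and SLC35A4, a member of the nucleotide sugar transporter family, lost more. The control shares of IBTK ran 8.65%, 5.44%, 10.9%, 20.8%, 22%, 12.9%, 15.3% and 3.98% over the 8 fractions. Its arsenite shares were 14.3%, 15.8%, 24.4%, 17.7%, 18.6%, 5.6%, 2.46% and 1.09%. IBTK had the largest control share of the 10 in fraction 7, which fell by 12.8 percentage points, while fractions 4 and 5 changed little. Its retention of 0.61 stood at percentile 69.8 of all genes and 70.8 among genes with a like control position. Among the 1026 genes of like coding length it stood at percentile 30.6.

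SLC35A4, the mRNA with the most upstream AUGs, lost most in fraction 5. In the control, the shares of SLC35A4 in fractions 1 to 8 were 1.26%, 8.47%, 11.8%, 29%, 34.3%, 9.49%, 4.31% and 1.36%. With arsenite they were 7.15%, 25.5%, 23.7%, 23.8%, 13.6%, 3.68%, 1.44% and 1.1%. Its fraction 5 fell by 20.7 percentage points, the largest fall of the 10 in that fraction, and fraction 2 rose by 17.1. The share in fractions 4 to 8 was 78.5% without arsenite and 43.7% with it. The relative shift of 0.40 was 0.61 with size factors, and that of CEBPG 0.58, and both were then called moved higher. IBTK reached 0.53 but was not called, since it was at −0.03 without fraction 1. With IFRD1 lost, 8 of the 10 moved higher with size factors, beside 28.7% of all genes.

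PCNXL4, now named PCNX4, a member of the pecanex family of membrane proteins, gained most in fraction 3. From fraction 1 to fraction 8, PCNXL4 had 6.48%, 17.7%, 12.1%, 20.4%, 27.3%, 8.26%, 5.42% and 2.31% of its total in the control. After arsenite the values were 9.21%, 21.9%, 27.4%, 16.9%, 16.1%, 4.92%, 2.25% and 1.26%. Fraction 3 rose by 15.3 percentage points and fraction 5 fell by 11.2. Its share in fractions 4 to 8 was 63.7% without arsenite and 41.5% with it. The relative shift was 0.82, and 1.46 with size factors.

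Set against each other, the 10 profiles differed to varying degrees. The difference between a pair was taken as the sum of absolute differences over the 16 shares, in percentage points, and there were 45 pairs. ATF5 and SLC35A4 were the most alike, at 45.8, and ATF5 and CEBPG the least, at 129. For scale, the median gene with no value of 0 lay at 111 from ATF5 and at 134 from ATF4. The one of the 10 furthest from ATF4, IBTK, was at 112. Differences over all pairs of genes were not computed. Over pairs, the median was 45.5 within the control gradient and 36.2 within the arsenite gradient. Positions spanned 3.65 to 4.62 in the control and 2.88 to 4.03 with arsenite. In the order of retention, ATF4 stood alone at the top, with a range of 1.05 to 1.31 when single fractions were left out, and its range did not overlap that of PPP1R15A (0.78 to 0.93). Each later neighbour in the order overlapped the one before it, down to CEBPG (0.29 to 0.49). These ranges show how far single fractions carry a value and are no replicate error.

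**Figure D4:**
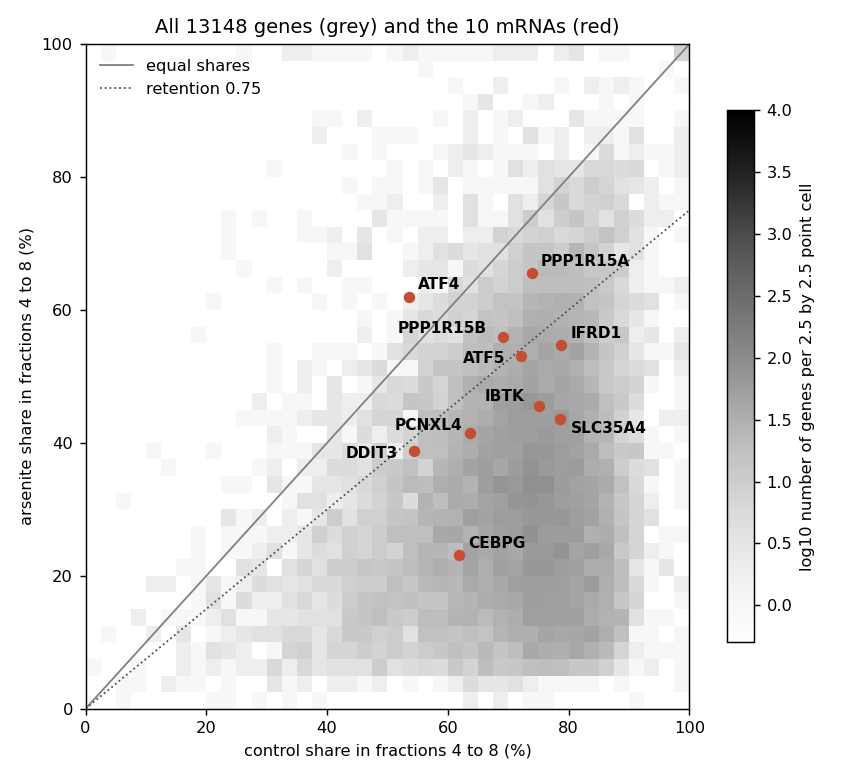
Share in fractions 4 to 8 in the control (x axis, percent) and with arsenite (y axis, percent) for all 13148 genes, as the log10 number of genes per cell in grey, and for the 10 mRNAs in red; the lines mark equal shares and a retention of 0.75. ATF4 lies above the line of equal shares, PPP1R15A and PPP1R15B between the lines and CEBPG lowest, at 23.1%.

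The genes whose profiles were most like each mRNA were found among the 11624 other genes with no value of 0, by the same sum of differences over the 16 shares. For ATF4 they were TTLL3, SEC31B and RORA, at 25.9 to 34.7 percentage points, where the median gene was at 134. For PPP1R15A they were SLC16A14, TULP4 and GCNT2, at 29.5 to 34. For PPP1R15B they were DUSP16, TRAPPC10 and DCP1A, at 19.9 to 23.9, and the first of these was the nearest found for any of the 10. ATF5 lay furthest from its neighbours, PAK7, BMP4 and EIF4E, at 38.5 to 40.02. None of the 10 was among the 3 nearest of another. The neighbours of DDIT3 were C8orf44-SGK3, TMEM170A and SKA2, those of CEBPG RAB39A, PARP11 and RNASEH1, and those of IFRD1 ZFP41, NF2 and ZNF275. The neighbours of IBTK were JAK2, FAM208A and MMS22L, those of SLC35A4 TRAPPC6B, EIF4G2 and C3orf52, and those of PCNXL4 NR1D2, MEX3C and ST8SIA2.

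Other mRNAs with upstream frames described as regulating them moved higher about as often as all genes. Of 15 such genes, 3 moved higher and 2 lower, beside 23.6% and 24% of all genes, with a median relative shift of 0.13 (0.25 with size factors) against 0.74 for the 10 and 0 for all genes. MDM2, the ubiquitin ligase of p53, had the largest shift among those that moved higher, with a share in fractions 4 to 8 of 67.4% without arsenite and 48% with it (relative shift 0.88). AMD1, of polyamine synthesis, and BACE1, the beta-secretase, also moved higher, at 0.75 and 0.56. SLC7A1, the cationic amino acid transporter CAT1, was the 1 of 15 that kept its share, at 77.6% without arsenite and 59.5% with it (relative shift 0.33). EPRS, the tRNA synthetase for glutamate and proline, lay lowest by relative shift (−0.93, and −1.65 with size factors), though it still had 46.9% in fractions 4 to 8. UCP2, a mitochondrial carrier, moved lower too, at 81.5% without arsenite and 13.7% with it (relative shift −0.63). Among genes with a like control position, the relative shift of SLC7A1 stood at percentile 89.7, MDM2 at 89.3 and BACE1 at 73. AMD1 stood at 60.1, EPRS at 44.5 and UCP2 at 14.4.

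Among genes of the eIF2 circuit itself, 22 in all, 1 moved higher and 9 lower, beside 23.6% and 24% of all genes. The count higher was 4 with size factors, beside 28.7%, and between 0 and 3 when single fractions were left out. Of the 22, 0 kept their share of fractions 4 to 8, beside 15.3%; the median relative shift was −0.06. The gene that moved higher was EIF2AK3, the kinase PERK, at 0.56, with shares of 76.3% and 53.2%. EIF2S1, which encodes eIF2 alpha, had a relative shift of −1.16. PPP1CA, the catalytic partner that PPP1R15A and PPP1R15B recruit, moved lower at −1.17 (−1.97 with size factors) and had 8.73% of its total in fractions 4 to 8 with arsenite, against 82.7% in the control. MCTS1, a re-initiation factor that acts with DENR, lay lowest, at −1.62. Ranked by relative shift among genes with a like control position, EIF2AK3 stood at percentile 85.5, EIF2S1 at 13.3, PPP1CA at 5.42 and MCTS1 at 1.03.

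Relatives of the 10 moved higher about as often as all genes. Of 18 relatives, 4 moved higher and 2 lower, beside 23.6% and 24% of all genes, with a median relative shift of −0.07 (0.24 with size factors). Among bZIP factors, ATF3, which is induced by ATF4, had 24.2% in fractions 4 to 8 with arsenite and a relative shift of −0.11 that turned to 0.23 with size factors, and CEBPD had 9.94% and −0.28, while CREB1 (0.61) and ATF2 (0.58) moved higher. ATF6B (−0.66) lay lowest. Against genes with a like control position, the relative shift of CREB1 stood at percentile 71, ATF2 at 60.7, ATF3 at 34.8, ATF6B at 28.3 and CEBPD at 18.6. IFRD2, the paralogue of IFRD1, had 15.7% there with arsenite, against 54.7% for IFRD1. In the pecanex family the 3 relatives had a larger retention than PCNXL4, at 0.69 for PCNXL3. PCNXL2 had 54.4% without arsenite and 52.8% with it (relative shift 1.39) and PCNX had 75% without arsenite and 58.3% with it (relative shift 0.61), and both kept their share, with retentions of 0.97 and 0.78. The 4 other SLC35A genes had arsenite shares from 18.7% (SLC35A1) to 32.2% (SLC35A5), below the 43.7% of SLC35A4.

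Of 20 target genes of ATF4 and DDIT3, 0 moved higher and 8 lower, beside 23.6% and 24% of all genes. The count higher was between 0 and 2 when single fractions were left out. SLC7A1 and SLC7A11 kept their share, 2 of 20 beside 15.3%. PHGDH, of serine synthesis, lay lowest at −1.65, and ASNS, asparagine synthetase, lay at −1.6. SLC7A11, the cystine transporter, had the highest value, 0.38 (0.17 with size factors), and had 64.5% of its total in fractions 4 to 8 against 74.6% in the control. The targets started higher than the 10, at a median control position of 4.89 against 4.34. Ranked by relative shift among genes that start alike, SLC7A1 stood at percentile 89.7, SLC7A11 at 88.6, PHGDH at 7.49 and ASNS at 4.83.

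Over all matched genes, relative shifts were higher where the transcript had more upstream AUGs, though far less than in the leading mRNAs of the set. The median relative shift was −0.18 over 6586 genes with no upstream AUG, 0.04 over 2839 with 1, 0.20 over 1369 with 2 and 0.31 over 2260 with 3 or more. Genes that kept their share of fractions 4 to 8 made up 11.4%, 15.5%, 18.8% and 23.8% of these classes. Median percentiles among genes with a like control position were 42, 51.6, 59.3 and 65.2. The classes also differed in length. From no upstream AUG to 3 or more, the median annotated 5′ untranslated region went from 107 nt to 419 nt. The median coding length went from 1350 nt to 1588.5 nt and the median mRNA length from 2797 nt to 3652 nt. The part of length in these differences was not tested. With the transcript of the longest 5′ untranslated region in place of the chosen one, the 4 medians were −0.20, −0.02, 0.03 and 0.13. Of the 10, ATF4, PPP1R15A, PPP1R15B and ATF5 lay above the upper quartile of retention in their class, as did IFRD1, and CEBPG lay below the lower quartile of its own.

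**Figure D5:**
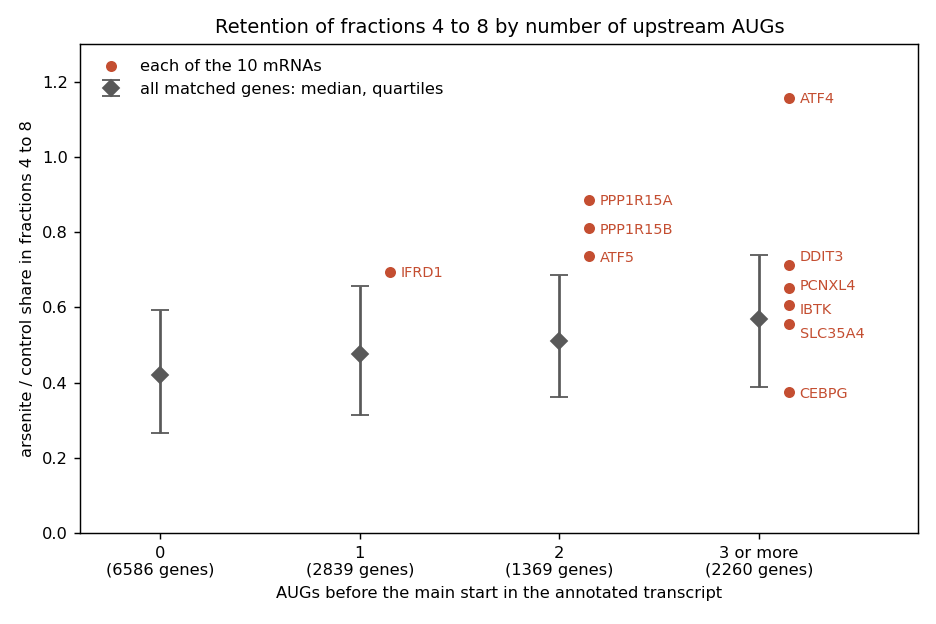
Retention (y axis, arsenite share over control share in fractions 4 to 8) by number of AUGs before the main start (x axis), as median and quartiles over all matched genes (grey) and for each of the 10 mRNAs (red). The median over genes rose from 0.42 with no upstream AUG to 0.57 with 3 or more, and ATF4 lay at 1.16.

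The scaling between fractions was not given in the sources used here, and it sets the direction of the absolute changes. Median-of-ratios size factors give the typical gene the same value in all libraries. A loss shared by most genes is thus removed by this scaling, which cannot show whether the typical gene lost share. With these size factors the median retention was 0.96 over all genes, a value that largely follows from the method, with quartiles of 0.73 and 1.16. Over the 10 the median was 1.32, and values ran from 0.99 for CEBPG to 1.95 for ATF4. Their ranks stayed high for most: ATF4 stood at percentile 97.4, PCNXL4 at 92.3, and PPP1R15B, PPP1R15A, DDIT3 and ATF5 between 86.7 and 87.4. IBTK (71.7), IFRD1 (65.8), SLC35A4 (57.6) and CEBPG (54.9) were nearer the middle. All 10 relative shifts were positive under this scaling too, with a median of 0.85.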

How the data were processed

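Total RNA from 8 gradient fractions each of untreated and arsenite-treated 293S cells was sequenced, with 1 library per treatment and fraction, as the titles give them. In the table the authors deposited, with 13148 genes, 16 library columns are in the unit fraction: the share of a gene's total in its gradient that lay in that library. The authors also deposited score columns with the mean fraction number of each gene, which were recomputed and differed by at most 1.51e-14. All columns were used. Exons of RefSeq genes were the features, per the file headers, and the submitters' processing notes name hg19. Aligner, counting and scaling between fractions were not given in the sources used here, and the depth is unknown.

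Positions, relative shifts, retention and percentiles were computed from the shares with Python 3.11.15, numpy 2.4.6 and pandas 2.3.3; the calls were tested on simulated profiles. Shares were turned to percent, and log2 ratios used a pseudocount of 1 percentage point. Upstream AUGs were counted in 1 protein-coding transcript per gene from GENCODE release 29, matched by symbol for 99.3% of genes. Ties between transcripts went to the shorter 5′ untranslated region, a choice made after the transcripts of the 10 mRNAs were seen. Ties first went to the longer transcript, and this was changed because the longer ATF4 transcript lacked the upstream frames described for ATF4. That annotation is on another build, so no coordinates are given. The 10 mRNAs, the 4 other lists, the rules and the named genes (all 10, the lists' members, the 3 nearest profiles of each) were chosen with earlier results of these data known. Examples within the lists, and the ranking by coding length, were chosen after their values were seen. Alternatives were median-of-ratios size factors, each fraction left out of both gradients, other thresholds, other summed fractions, other pseudocounts, the 50% point of the profile in place of its mean, genes with no 0, and other transcript choices.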

Additional observations from a re-analysis of the deposited data

How the results depend on the processing

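Each treatment and fraction had 1 library, so the values carry no replicate error, and the depth that limits small shares is unknown. No paired analysis was possible because the groups are single libraries and share no replicate numbers beyond 1. Single relative shifts of the 10 mRNAs were positive in 120 of 120 recalculations and stayed within 1.5 times, or 0.1, of the reported value in 108. Single retentions stayed within 1.5 times of the reported value in 109 of 120. With size factors, which give the typical gene the same value in all libraries, the retention of all 10 mRNAs rose beyond that limit. The causes of the differences below were not tested.

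With a threshold of 1 fraction, 2 of the 10 moved higher instead of 7, beside 6.69% of all genes, and at 0.25 all 10 did, beside 34.8%. The count that kept their share was 3, and became 10 with size factors (with 73.3% of all genes), 8 over fractions 3 to 8 (45.1%), 5 without fraction 1 (18.4%), 6 without fraction 3 (26.8%), 9 at a limit of 0.5 (44.8%) and 1 at a limit of 1 (3.25%). It was 2 without fraction 4 (9.61%) and 2 without fraction 5 (7.74%). The median retention of the 10 was 1.32 with size factors. With a pseudocount of 10 the median log2 ratios of the 10 were 0.38, 0.36, −0.39, −0.33 and −0.10 in fractions 1, 2, 6, 7 and 8, and with 0.1 that of fraction 8 was −0.82.

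Of the other mRNAs with upstream frames, the number that moved higher was 5 without fraction 3, 5 by the 50% point, 7 at a threshold of 0.25 and 0 at 1; the number lower was 0 at 1. Their median relative shift was 0.25 with size factors, 0.0041 without fraction 3 and 0.26 without fraction 4. For the eIF2 circuit, the number higher was 4 with size factors, 0 without fraction 1, 3 without fraction 2, 2 without fraction 3, 0 without fraction 6, 2 by the 50% point, 2 among genes with no 0, 4 at 0.25 and 0 at 1. The number lower was 5 at 1, and the median was −0.16 without fraction 3 and −0.18 without fraction 7.

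For the relatives, the number higher was 2 without fraction 7 and 1 at a threshold of 1; the number lower was 1 without fraction 1, 1 without fraction 6, 4 at 0.25 and 0 at 1. Their median changed sign, to 0.24 with size factors, 0.18 without fraction 5, 0.012 without fraction 6 and 0.015 by the 50% point. For the targets, the number higher was 1 without fraction 3, 1 without fraction 5, 2 without fraction 7 and 2 at 0.25, the number lower was 5 at 1, and the median was −0.060 with size factors, −0.32 without fraction 1 and −0.48 by the 50% point. With the longest 5′ untranslated region, the median relative shift was −0.025 over genes with 1 upstream AUG, 0.034 with 2 and 0.13 with 3 or more. With ties going to the longer transcript, the choice made first and later replaced, these medians were 0.03, 0.17 and 0.28.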

Other observations

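Genes with an upstream frame that overlaps the main start, as found in ATF4, ATF5 and DDIT3, are part of the genes with upstream AUGs. Their medians did not stand far from those of that whole group. Over 2101 such genes the median relative shift was 0.23 and the median retention 0.51, against 0.18 and 0.51 over all 6468 genes with at least 1 upstream AUG. Of the genes with an overlapping frame, 33.4% moved higher and 18.2% kept their share of fractions 4 to 8. Of genes with at least 1 upstream AUG 30.4% and 19.1% did, and of all genes 23.6% and 15.3%. ATF4 and DDIT3, with retentions of 1.16 and 0.71, lay at different distances from that median, and ATF5 was at 0.74.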
